A study of Mus musculus with 15 samples.

Results

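The genes described here were the ligands and receptors through which vascular endothelial growth factors (VEGF) and angiopoietins reach endothelial cells, measured in whole mouse lung after bleomycin. The members were set by gene name, not by a measured value, as Vegfa, Vegfc, Kdr, Flt1, Nrp1, Nrp2, Angpt1, Angpt2, Tek and Tie1. All 10 were found among the 33340 genes of the count table, and all 10 passed the filter on low counts that left 17457 genes for testing. The mice were male C57BL/6 of at least 10 weeks of age, with no engineered allele named in the labels. Those of days 7, 14 and 21 were given 5 U/kg of bleomycin once through the trachea, a drug that breaks DNA and leaves fibrosis in the lung. The day 0 libraries are titled as controls. No group without bleomycin was sampled at the later days, so the drug, its delivery and time cannot be told apart. Whole lungs were collected at day 0 (4 libraries, the control group), day 7 (4 libraries), day 14 (4 libraries) and day 21 (3 libraries), and polyA RNA was sequenced. These numbers are those of the sample titles, while the text of the series speaks of 3 replicates per time. The library titled day 0 replicate 4 carried a treatment label that named bleomycin. It was kept among the controls by its title, and leaving it out changed no call of the 10 genes against day 0, while Flt1 (adjusted p = 0.0835, edgeR) and Tie1 (adjusted p = 0.071) no longer passed the test for any difference among the days. Totals of 15652008 to 18020661 counted reads per library gave at least 127 reads for each of the 10 genes in each library, the lowest count being that of Angpt2. Counts from 16 mitochondrial genes made up 2.28%, 2.31%, 4.22% and 4.04% of the day 0 libraries, 2.03% to 2.15% at day 7, 2.1% to 4.14% at day 14 and 2.66% to 4.01% at day 21, so the controls fell into a low and a high pair and day 7 matched the low pair.

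VEGF ligands bind receptor tyrosine kinases on endothelial cells, with Kdr (VEGFR2) carrying most of the signal for growth and survival, Flt1 (VEGFR1) binding the ligand tightly with weak kinase activity, and the neuropilins Nrp1 and Nrp2 acting as co-receptors that also bind class 3 semaphorins. Angpt1, made mainly by mural and other mesenchymal cells, activates the receptor Tek (Tie2) and keeps vessels quiet, whereas Angpt2, made by endothelial cells themselves, often opposes it, and Tie1 is an orphan receptor that pairs with Tek. In the lung, the alveolar epithelium is a main source of Vegfa, and the capillary cells called aerocytes carry high Kdr.

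Over the 3 comparisons with day 0, the receptors Kdr, Tek and Tie1 and the ligand Angpt1 were each lower on at least 1 day, and the ligand Vegfc and the co-receptor Nrp2 were higher. A gene was called where edgeR's quasi-likelihood test gave a Benjamini-Hochberg adjusted p under 0.05 over all genes tested and the fold change exceeded 1.5. At day 7, 1 of the 10 genes was called higher (Nrp2), where 8.78% of all genes tested were, and 2 were called lower (Tek and Tie1), where 7.36% of all genes were. At day 14, 2 were called higher (Vegfc and Nrp2; background 12.0%) and 3 lower (Kdr, Angpt1 and Tek; background 11.2%). At day 21, 2 were called higher (Vegfc and Nrp2; background 12.4%) and 2 lower (Kdr and Angpt1; background 10.1%). The median log2 fold change of the 10 genes was -0.42 at day 7, -0.50 at day 14 and -0.18 at day 21, beside 0.01, 0.02 and 0.02 over all genes tested. A test for any difference among the 4 days passed for 8 of the 10 genes, the exceptions being Vegfa (adjusted p = 0.29, edgeR) and Nrp1 (adjusted p = 0.309, edgeR), where 39.9% of all genes passed. Without 1 library the count ranged from 6 to 8: Flt1 no longer passed in 9 of the 15 such fits (adjusted p = 0.0513 to 0.0835, edgeR), nor with the mitochondrial share in the fit (adjusted p = 0.0568), and Tie1 did not without day 0 replicate 3 (adjusted p = 0.0591) or replicate 4 (adjusted p = 0.071). The comparisons with day 0 share the same 4 control libraries, so their values are given side by side and are not separate evidence for one another. In RNA from whole tissue, fewer cells of a type and less RNA per cell cannot be told apart.

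**Figure D1:**
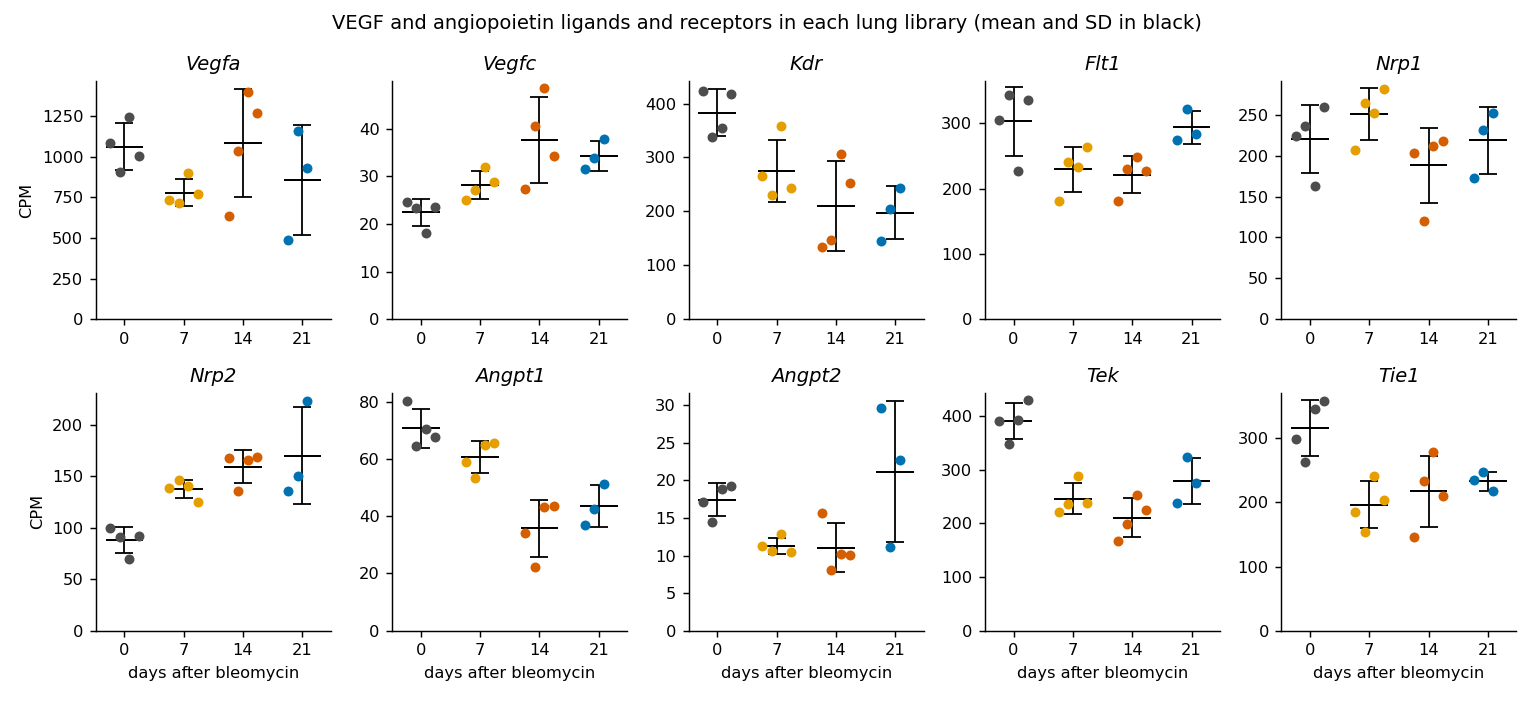
CPM (y axis from 0, a scale of its own per gene) of the 10 genes in each library against days after bleomycin (x axis); each point is 1 library, the horizontal line the mean and the bar the SD. Tek sits at 347 to 430.0 CPM at day 0 and at 323 CPM or less in each later library, whereas Nrp2 sits at 70.0 to 99.3 CPM at day 0 and at 125 CPM or more later.

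The 10 genes lie on 6 chromosomes of the mouse genome (GRCm38/mm10), and positions are those of GENCODE M21. Vegfa (ENSMUSG00000023951) spans 46016993 to 46032369 on the minus strand of chromosome 17. Vegfc (ENSMUSG00000031520, plus strand, 54077606 to 54187096), Nrp1 (ENSMUSG00000025810, plus strand, 128358604 to 128503363) and Angpt2 (ENSMUSG00000031465, minus strand, 18690263 to 18741562) lie on chromosome 8. Kdr (ENSMUSG00000062960, 75932827 to 75978458) and Flt1 (ENSMUSG00000029648, 147561604 to 147726011) are on the minus strand of chromosome 5. Tek (ENSMUSG00000006386, plus strand, 94739289 to 94874976) and Tie1 (ENSMUSG00000033191, minus strand, 118471191 to 118490061) share chromosome 4. Nrp2 (ENSMUSG00000025969) spans 62703285 to 62818695 on the plus strand of chromosome 1, and Angpt1 (ENSMUSG00000022309) spans 42424723 to 42676977 on the minus strand of chromosome 15. The exons of 8 genes overlapped no other gene's exons. In Angpt1, 737 exon bases (14.2%) lie opposite exons of the antisense gene Gm17473, and in Nrp1, 80 bases (0.818%) are shared with Mir1903. The library kit does not mark strand, so reads of Angpt1 and Gm17473 in those bases cannot be told apart.

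Sequence just upstream of the start is shown for 2 receptors that fell, Tek and Kdr, and for the 2 genes that rose, Nrp2 and Vegfc, so that genes moving in opposite directions can be read side by side. A RefSeq promoter entry (GRCm38.p6) was matched for 8 of the 10 genes, and each run below ends where the first annotated exon of RefSeq or GENCODE begins. Written 5′ to 3′ on the strand of the gene, the windows are chr4:94739039-94739288 (plus strand, 250 bases) for Tek, chr5:75978459-75978705 (minus strand, 247 bases) for Kdr, chr1:62703067-62703284 (plus strand, 218 bases) for Nrp2 and chr8:54077282-54077531 (plus strand, 250 bases) for Vegfc. Capitals mark matches, on either strand, to an ETS-type motif (GGAAGT), a GC box (GGGCGG) or the core of the hypoxia response element (ACGTG).
Tek: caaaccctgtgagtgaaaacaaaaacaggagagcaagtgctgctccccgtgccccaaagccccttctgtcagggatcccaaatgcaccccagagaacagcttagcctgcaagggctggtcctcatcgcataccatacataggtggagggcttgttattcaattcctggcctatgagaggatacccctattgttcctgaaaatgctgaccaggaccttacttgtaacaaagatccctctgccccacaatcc
Kdr: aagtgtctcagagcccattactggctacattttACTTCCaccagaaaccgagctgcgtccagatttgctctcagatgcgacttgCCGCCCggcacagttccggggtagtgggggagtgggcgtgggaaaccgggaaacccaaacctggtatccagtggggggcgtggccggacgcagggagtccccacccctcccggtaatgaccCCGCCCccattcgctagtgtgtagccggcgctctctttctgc
Nrp2: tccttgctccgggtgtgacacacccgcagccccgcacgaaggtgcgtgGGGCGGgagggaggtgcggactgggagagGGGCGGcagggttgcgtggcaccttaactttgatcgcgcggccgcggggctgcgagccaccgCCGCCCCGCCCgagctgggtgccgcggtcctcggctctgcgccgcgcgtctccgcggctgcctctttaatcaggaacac
Vegfc: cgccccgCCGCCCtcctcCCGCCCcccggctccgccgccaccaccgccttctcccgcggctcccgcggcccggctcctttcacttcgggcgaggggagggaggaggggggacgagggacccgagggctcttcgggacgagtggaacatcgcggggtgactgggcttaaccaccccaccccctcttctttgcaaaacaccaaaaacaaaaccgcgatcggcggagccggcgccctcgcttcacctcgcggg
The Tek window held none of the 3 motifs and 51.2% G and C. The Kdr window held 1 ETS-type match and 2 GC boxes (61.5% G and C), the Nrp2 window 4 GC boxes, a pair of which overlap (72.5%), and the Vegfc window 2 GC boxes (71.6%). Among 32851 promoters of the table cut to the length of the Tek window, 19.7% held the ETS-type motif, 32.7% the GC box and 16.6% the hypoxia core. These are matches of letters in a window and no measure of binding.

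Levels are given as CPM, the reads of a gene per 1000000 counted reads after TMM scaling, and as RPKM, the CPM per 1000 bases of merged exon. On the RPKM scale, Vegfa had the highest mean of the 10 genes on each day and Angpt2 the lowest. At day 21 the libraries of Angpt2 (3.01 to 8.03) overlapped those of Angpt1 (7.09 to 9.83). At day 0 the mean RPKM was 248 ± 33.7 (SD, n = 4) for Vegfa, 82.8 ± 7.20 for Tek, 64.3 ± 8.95 for Tie1 and 42.5 ± 4.82 for Kdr, and the libraries of each did not overlap those of the next. Nrp1 (22.5 ± 4.23) and Flt1 (22.4 ± 3.93) came next with overlapping libraries, followed by Angpt1 (13.6 ± 1.31). Vegfc (9.14 ± 1.18) and Nrp2 (7.44 ± 1.06) overlapped, and Angpt2 stood at 4.73 ± 0.592. At day 7 the libraries of Tek (52.1 ± 6.16), Tie1 (39.9 ± 7.43), Kdr (30.4 ± 6.43) and Nrp1 (25.7 ± 3.25) overlapped from each gene to the next. At day 14 Tek (44.7 ± 7.78) and Tie1 (44.1 ± 11.2) overlapped, Kdr (23.2 ± 9.20) overlapped Nrp1 (19.2 ± 4.68), and both Vegfc (15.4 ± 3.69) and Nrp2 (13.4 ± 1.36) stood above Angpt1 (6.87 ± 1.90). The isoforms of Vegfa, and the soluble and membrane forms of Flt1, share exons, so these gene totals do not separate them.

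Among the ligands of the VEGF family, Vegfa did not pass the test on any day, and Vegfc rose at days 14 and 21. Vegfa measured 1086, 906, 1248 and 1005 CPM in the day 0 libraries, 732, 714, 901 and 772 at day 7, 634, 1037, 1396 and 1272 at day 14, and 489, 1157 and 928 at day 21. Each day 7 library lay below each control library, while days 14 and 21 overlapped the controls and spread over a range wider than theirs. Against day 0 the log2 fold change was -0.44 ± 0.25 (SE; adjusted p = 0.202, edgeR) at day 7, 0.03 ± 0.25 (adjusted p = 0.936) at day 14 and -0.31 ± 0.27 (adjusted p = 0.424) at day 21.

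Vegfa, the main growth factor for endothelial cells, was lowest in day 21 replicate 1 (489 CPM) and day 14 replicate 1 (634 CPM). The summed level of 9 alveolar type 1 markers was also lowest there within each day, at 3474 CPM for day 21 replicate 1 (6587 and 8822 CPM in its companions) and 6113 CPM for day 14 replicate 1 (7096 to 9040.1 CPM in its companions). At day 0 the sum ran from 6068 to 8795 CPM, where replicate 3, with the lowest sum, had the highest Vegfa (1248 CPM). At day 7 it ran from 6666.5 to 7518 CPM. Of the 9 markers, 1 was called higher (Pdpn) and 1 lower (Hopx) at day 7, 1 higher (Pdpn) at day 14, and 1 higher and 2 lower at day 21; none was at 0. The summed level of 8 alveolar type 2 markers was also lowest within each day in day 21 replicate 1 (8034 CPM) and day 14 replicate 1 (11101 CPM). At day 0 that sum was highest in replicate 3 (45917 CPM) and lowest in replicate 4 (34801 CPM). The lowest Vegfa of day 0 was that of replicate 2 (906 CPM). The part of either cell type in the Vegfa level was not tested.

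Hypoxia raises Vegfa in many cells, so 13 other targets of hypoxia-inducible factors were counted. At day 7, 2 were called higher and 2 lower, at day 14, 4 higher and 3 lower, and at day 21, 5 higher and 1 lower, with median log2 fold changes of -0.11, 0.28 and 0.32. Ankrd37 had the largest rise among those called at day 14 (log2 fold change 2.03 ± 0.35, adjusted p = 0.000455, edgeR) and Pfkfb3, a regulator of glycolysis, the largest fall (-0.86 ± 0.15, adjusted p = 0.00044, edgeR). The summed level of the 13 genes was highest at day 14 in replicate 1 (1102 CPM) and at day 21 in replicate 1 (1140.3 CPM), the libraries with the lowest Vegfa of those days. No marker was at 0, and the part of hypoxia in the Vegfa level was not tested.

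Vegfc, best known as the growth factor of lymphatic vessels, gave 24.5, 23.3, 18.1 and 23.6 CPM at day 0. It gave 25.1, 27.0, 32.0 and 28.9 CPM at day 7, 27.3, 40.5, 48.5 and 34.2 CPM at day 14, and 31.5, 33.8 and 37.7 CPM at day 21. Each later library was above each control, with the highest value in day 14 replicate 3. In log2 fold change this was 0.34 ± 0.16 at day 7 (adjusted p = 0.126, not called), 0.75 ± 0.16 at day 14 (adjusted p = 0.00194, edgeR) and 0.62 ± 0.17 at day 21 (adjusted p = 0.0114, edgeR). The day 21 call was lost when day 0 replicate 3, the lowest control, was left out (0.50, adjusted p = 0.0425, under the fold limit), without day 21 replicate 3 (0.50, adjusted p = 0.0624) and without a filter on low counts (0.57, under the fold limit).

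The signalling receptor Kdr fell at days 14 and 21, and Flt1 was not called on any day. Kdr gave 423, 338, 354 and 418 CPM at day 0, 265, 231, 359 and 243 CPM at day 7, 133, 148, 306 and 252 CPM at day 14, and 145, 204 and 243 CPM at day 21. At day 7 only replicate 3 reached the control range, and no library at days 14 and 21 did. Day 14 split into a low pair (133 and 148 CPM) and a higher pair (252 and 306 CPM). This gave log2 fold changes of -0.48 ± 0.24 (adjusted p = 0.154) at day 7, -0.87 ± 0.24 (adjusted p = 0.0121, edgeR) at day 14 and -0.96 ± 0.27 (adjusted p = 0.0132, edgeR) at day 21.

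Kdr was not called at day 21 without replicate 1 of that day (-0.81, adjusted p = 0.0515), nor at day 14 among libraries with more than 3.5% of counts from mitochondrial genes (-0.73, adjusted p = 0.0971). Of 8 markers of aerocytes, the capillary cells that carry high Kdr, 2 were called lower at day 7, 4 at day 14 and 5 at day 21, and Sirpa, which macrophages also carry, was called higher at days 14 and 21. Their summed level, with Sirpa included, was 968 to 1142 CPM at day 0, 829.7 to 969 at day 7, 757 to 939 at day 14 and 736 to 882 at day 21, with no marker at 0. The median log2 fold change of the 8 was -0.38 at day 7, -0.66 at day 14 and -1.02 at day 21. Ednrb, the endothelin receptor of aerocytes, had the largest fall of them at day 14 (log2 fold change -1.61 ± 0.17, adjusted p = 6.9e-06, edgeR). The part of aerocyte number in the Kdr level was not tested.

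Flt1 gave 306, 343, 227 and 336 CPM at day 0, 181, 240.1, 233 and 263 CPM at day 7, 181, 229, 249 and 227 CPM at day 14, and 275, 323 and 284 CPM at day 21. Day 0 replicate 3 was the lowest control and lay inside the range of days 7 and 14, and day 21 was back within the control range. Its log2 fold change was -0.40 ± 0.15 (adjusted p = 0.0576) at day 7, -0.45 ± 0.15 (adjusted p = 0.0282, under the fold limit) at day 14 and -0.04 ± 0.16 (adjusted p = 0.864) at day 21. Without day 0 replicate 3, the day 14 value was -0.59 (adjusted p = 0.00571, edgeR) and was called.

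Of the neuropilins, Nrp2 was called higher on each day and Nrp1 on none. Nrp2 gave 99.3, 91.3, 70.0 and 91.6 CPM at day 0, 139, 146, 141 and 125 CPM at day 7, 167, 135, 166 and 169 CPM at day 14, and 136, 149.9 and 223 CPM at day 21. Each later library exceeded each control, with the lowest of them (125 CPM, day 7 replicate 4) against the highest control (99.3 CPM). As a log2 fold change this was 0.64 ± 0.15 (adjusted p = 0.00635, edgeR) at day 7, 0.85 ± 0.15 (adjusted p = 0.000518) at day 14 and 0.95 ± 0.16 (adjusted p = 0.000455) at day 21. The day 7 call was lost on fold without day 0 replicate 3 (0.52, adjusted p = 0.0258) and among libraries under 2.5% mitochondrial counts (0.51, adjusted p = 0.0101), and it was lost when the mitochondrial share entered the fit (0.46, adjusted p = 0.0856).

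Nrp1 gave 224, 236, 163 and 259.8 CPM at day 0, 207, 265, 252 and 281 CPM at day 7, 203, 119.9, 212 and 217 CPM at day 14, and 173, 232 and 252 CPM at day 21. All 3 later days overlapped the controls, and day 14 replicate 2 was the lowest of the 15 libraries. The edgeR log2 fold change was 0.19 ± 0.19 (adjusted p = 0.495), -0.23 ± 0.19 (adjusted p = 0.383) and -0.01 ± 0.20 (adjusted p = 0.975) at days 7, 14 and 21. Counted within a library, Nrp2 reads were 0.353 to 0.444 of the Nrp1 reads at day 0, 0.443 to 0.670 at day 7, 0.776 to 1.13 at day 14 and 0.647 to 0.887 at day 21. This ratio was chosen after the values were seen, and its difference from day 0 did not pass on any day (exact permutation test, two-sided, p = 0.0571, 0.0286 and 0.0571, adjusted p = 0.0857 on each day over 12 tests of 4 such ratios). The day 14 and day 21 libraries lay wholly above the controls, and these p-values are the smallest that 4 and 3 libraries against 4 allow, so a pass at day 21 was out of reach.

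Macrophages and lymphatic endothelium also carry Nrp2, and markers of both were counted. Of 9 macrophage markers, 5 were called higher at day 7, 6 at day 14 and 5 at day 21, when Siglecf was called lower. At day 7 the median log2 fold change of the 9 was 0.996, and it was 0.59 with 3 called higher when the mitochondrial share entered the fit. Their summed level was 907 to 1226 CPM at day 0, 1101 to 1971 at day 7, 1691 to 4367 at day 14 and 2011 to 4081 at day 21, and none was at 0. C1qb, a complement subunit made by macrophages, had the largest rise of them at day 14 (log2 fold change 3.18 ± 0.29, adjusted p = 2.94e-06, edgeR). Day 14 replicate 2 had the highest macrophage sum of that day (4367 CPM) and the lowest Nrp2 (135 CPM). Day 14 replicate 1 had the next highest sum (3963 CPM) with 167 CPM of Nrp2. Of 7 lymphatic markers, 1 was called higher at day 7 (Pdpn, also an alveolar type 1 marker), 4 at day 14 and 6 at day 21. Their sum was 752 to 1101, 765 to 995, 874 to 1369 and 1018 to 1734 CPM at days 0, 7, 14 and 21, and none was at 0. The median log2 fold change of the 7 was 0.15 at day 7, 0.60 at day 14 and 1.13 at day 21. Prox1, the transcription factor that sets lymphatic identity, had the largest rise of them at day 14 (log2 fold change 1.20 ± 0.17, adjusted p = 8.18e-05, edgeR). The part of either cell type in the Nrp2 rise was not tested.

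**Figure D2:**
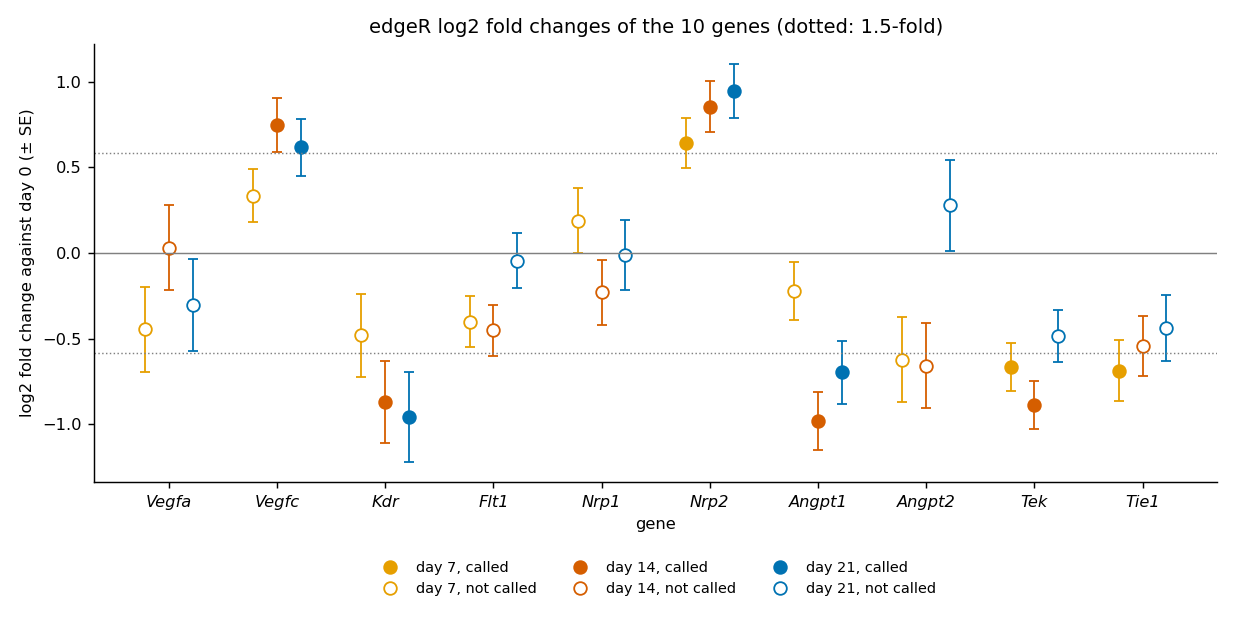
edgeR log2 fold changes against day 0 (y axis, ± SE) of the 10 genes (x axis) at days 7, 14 and 21; filled points were called, open points were not, and dotted lines mark 1.5-fold. Nrp2 is filled above 0 on each day, Vegfc at days 14 and 21, and Kdr and Angpt1 are filled below 0 at days 14 and 21.

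Of the angiopoietins, Angpt1 fell at days 14 and 21, and Angpt2 did not pass the test against day 0. Angpt1 gave 80.2, 64.3, 70.5 and 67.8 CPM at day 0, 59.1, 53.3, 64.9 and 65.5 CPM at day 7, 34.2, 22.4, 43.0 and 43.5 CPM at day 14, and 36.9, 42.6 and 51.2 CPM at day 21. Day 7 overlapped the controls, and each library of days 14 and 21 lay below each library of days 0 and 7. Against day 0 the log2 fold change was -0.22 ± 0.17 (adjusted p = 0.359) at day 7, -0.98 ± 0.17 (adjusted p = 0.000537, edgeR) at day 14 and -0.70 ± 0.19 (adjusted p = 0.0107, edgeR) at day 21.

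Between day 7 and day 14, Angpt1 was the only gene of the 10 called, and it fell (log2 fold change -0.76 ± 0.17, adjusted p = 0.0194, edgeR), where 3.23% of all genes tested were called lower. That call was lost without day 7 replicate 3 (-0.73, adjusted p = 0.0519), without day 7 replicate 4 (-0.72, adjusted p = 0.0577) and when the mitochondrial share entered the fit (-0.71, adjusted p = 0.139).

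Pericytes and platelets are known to carry Angpt1. Of 8 pericyte markers, 1 was called higher and 1 lower at days 7 and 14 each, and 2 higher and 1 lower at day 21. Their sum was 264 to 324 CPM at day 0, 272 to 353 at day 7, 276 to 400.4 at day 14 and 398 to 558 at day 21, and none was at 0. The median log2 fold change of the 8 was -0.07 at day 7, -0.33 at day 14 and 0.18 at day 21. At day 14 the called pair was Cspg4, a proteoglycan of pericytes (log2 fold change 1.23 ± 0.30, adjusted p = 0.00543, edgeR), and Cox4i2, a subunit of cytochrome oxidase (-0.67 ± 0.21, adjusted p = 0.0247, edgeR). Of 8 platelet and megakaryocyte markers, 3 were called lower at day 7, 5 at day 14 and 1 at day 21, when Pf4 was called higher, and Gp6, the platelet collagen receptor, had the largest fall at day 14 (-2.28 ± 0.62, adjusted p = 0.0105, edgeR). Their sum was 48.9 to 86.5 CPM at day 0, 34.6 to 53.1 at day 7, 28.2 to 53.0 at day 14 and 41.3 to 76.0 at day 21. With the mitochondrial share in the fit, 1 of the 8 was called lower at day 7. The part of pericytes or platelets in the Angpt1 level was not tested.

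Angpt2 gave 17.1, 14.5, 18.9 and 19.3 CPM at day 0, 11.3, 10.6, 12.8 and 10.5 CPM at day 7, 15.7, 8.09, 10.2 and 10.1 CPM at day 14, and 29.6, 11.1 and 22.7 CPM at day 21. Each day 7 library lay below each control, 3 of 4 day 14 libraries did, and day 21 spread from below to above the control range. In log2 fold change this was -0.63 ± 0.25 (adjusted p = 0.0766) at day 7, -0.66 ± 0.25 (adjusted p = 0.053) at day 14 and 0.28 ± 0.26 (adjusted p = 0.461) at day 21. The day 21 value was -0.08 without day 21 replicate 1 and 0.55 without day 21 replicate 2. Those of days 7 and 14 sit near the threshold: DESeq2 called Angpt2 lower at day 7 (adjusted p = 0.0403) and at day 14 (adjusted p = 0.0278). So did edgeR with the replicate number as a block (adjusted p = 0.035 and 0.016), and the day 14 fit without day 14 replicate 1 (-0.90, adjusted p = 0.0141, edgeR).

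From day 7 to day 21, Angpt2 was the only gene of the 10 called, and it rose (log2 fold change 0.90 ± 0.26, adjusted p = 0.0371, edgeR), where 5.20% of all genes tested were called higher. Day 21 replicate 2 (11.1 CPM) lay within the day 7 range. The call was lost without day 21 replicate 1 (0.56, adjusted p = 0.222), without day 21 replicate 3 (0.82, adjusted p = 0.0884), and without any one of the 4 day 7 libraries (adjusted p = 0.0597 to 0.0831). None of the 10 genes was called between days 14 and 21 (edgeR), where 0.00% of all genes tested were, nor by DESeq2 or voom. At an unadjusted p under 0.05, 3 of them, Flt1, Angpt2 and Tek, stood higher at day 21, where 5.08% of all genes tested did.

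The reads of Angpt2 per read of Angpt1 within a library, a measure that needs no scaling, were 0.213, 0.225, 0.268 and 0.285 at day 0. They were 0.191, 0.199, 0.198 and 0.161 at day 7, 0.459, 0.361, 0.238 and 0.233 at day 14, and 0.803, 0.261 and 0.444 at day 21. Each day 7 library lay below each control, while days 14 and 21 overlapped the controls at their low end and exceeded them at their high end. The mean log2 ratio differed from day 0 by -0.40 at day 7 (exact permutation test, two-sided, p = 0.0286, adjusted p = 0.0857 over 3 tests). That unadjusted p is the smallest that 4 against 4 libraries allow. The difference was 0.33 at day 14 (exact p = 0.286) and 0.88 at day 21 (exact p = 0.171, where 0.0571 is the smallest that 3 against 4 libraries allow). The day 21 difference was 0.47 without day 21 replicate 1.

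**Figure D3:**
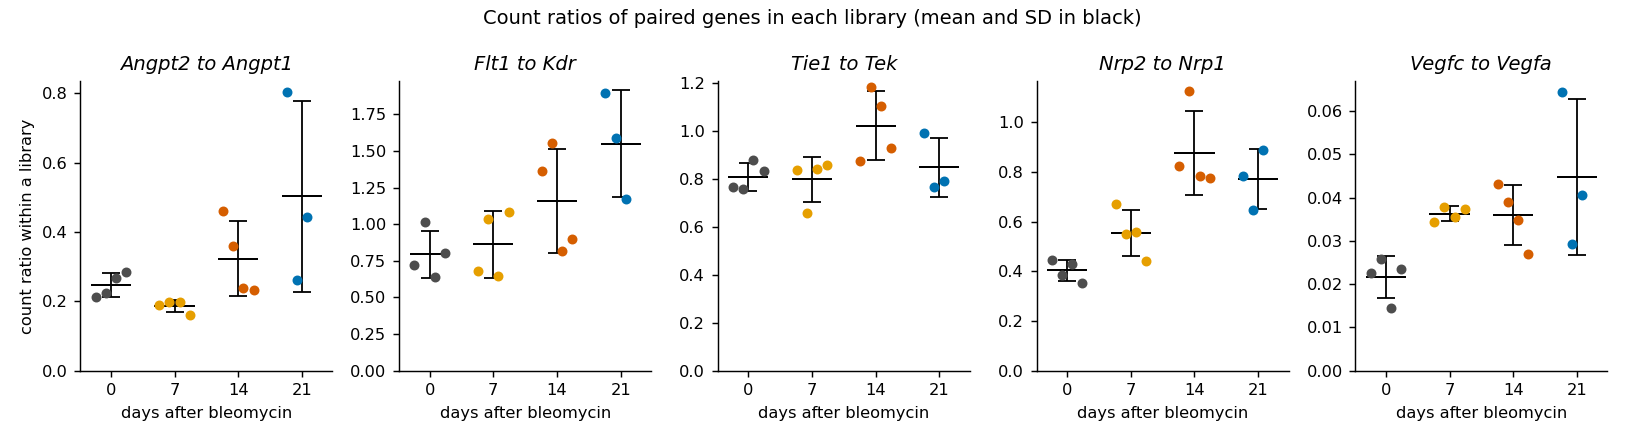
Reads of 1 gene per read of another within each library (y axis from 0, no unit) against days after bleomycin (x axis) for 5 pairs; points are libraries, lines means and bars SD. Nrp2 to Nrp1 stands at 0.353 to 0.444 at day 0 and at 0.647 or more at days 14 and 21, and Angpt2 to Angpt1 reaches 0.803 in 1 day 21 library while another stays at 0.261.

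Both Tie receptors fell. Tek, the angiopoietin receptor, gave 390.2, 347, 393 and 430.0 CPM at day 0, 221, 235, 288 and 239 CPM at day 7, 167, 198, 252 and 226 CPM at day 14, and 237, 323 and 276 CPM at day 21. No later library reached the lowest control, and the day 14 libraries were on average the lowest. This gave log2 fold changes of -0.67 ± 0.14 (adjusted p = 0.00339, edgeR) at day 7, -0.89 ± 0.14 (adjusted p = 0.000231) at day 14 and -0.48 ± 0.15 (adjusted p = 0.0243, under the fold limit) at day 21. The day 21 value passed the fold limit without day 21 replicate 2 (-0.64, adjusted p = 0.0098, edgeR).

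Tie1 gave 298, 262, 345 and 358 CPM at day 0, 184, 155, 242 and 204 CPM at day 7, 146, 234, 278 and 209 CPM at day 14, and 235, 247 and 218 CPM at day 21. Days 7 and 21 lay below the controls throughout, and at day 14 replicate 3 alone reached their range. As a log2 fold change this was -0.69 ± 0.18 (adjusted p = 0.0117, edgeR) at day 7, -0.54 ± 0.18 (adjusted p = 0.0276, under the fold limit) at day 14 and -0.44 ± 0.19 (adjusted p = 0.0982) at day 21. When the mitochondrial share entered the fit, Tie1 lost its day 7 call (-0.37, adjusted p = 0.158), as did Tek (-0.53, adjusted p = 0.0423, under the fold limit), while Tie1 was called at day 14 (-0.63, adjusted p = 0.00304, edgeR). Tie1 was also called at day 14 without day 0 replicate 1, day 0 replicate 2, day 14 replicate 2 or day 14 replicate 3 (-0.60 to -0.69, adjusted p = 0.00941 to 0.0359, edgeR). Among the libraries under 2.5% alone, Tek was called at day 7 and Tie1 was not (-0.53, adjusted p = 0.0471, edgeR, under the fold limit).

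Across libraries, whole groups that did not overlap were counted for each comparison with day 0. At day 7, 2 of the 10 genes lay wholly above the controls and 4 wholly below, where 30.8% of all genes tested lay wholly to either side. At day 14 it was 2 above and 3 below (background 31.1%), and at day 21, 2 above and 4 below (background 35.5%).

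The median of other endothelial markers lay below 0 on each day. Of 17 pan-endothelial markers, none of them among the 10 genes, 0 were called higher and 3 lower at day 7, 1 higher and 4 lower at day 14, and 1 higher and 3 lower at day 21 (edgeR), with median log2 fold changes of -0.37, -0.30 and -0.17. When the mitochondrial share entered the fit, 1 was called lower at day 7 and the median there was -0.19. Their summed level was 4749.5 to 5433 CPM at day 0, 3404 to 4177 at day 7, 2551 to 4484 at day 14 and 3423 to 4529 at day 21, and none was at 0. Ramp2, a partner of the adrenomedullin receptor, had the largest fall of them at day 14 (log2 fold change -1.03 ± 0.19, adjusted p = 0.000857, edgeR), and Ecscr, an endothelial surface protein, was the one called higher (0.66 ± 0.15, adjusted p = 0.00409, edgeR). Day 14 replicate 1 had the lowest endothelial sum of the 15 libraries (2551 CPM), and it also had the lowest Kdr, Tek and Tie1. Of 7 general capillary markers, 1 was called lower on each day (Hilpda, -1.49 ± 0.19 at day 14, adjusted p = 4.82e-05, edgeR) and 1 higher at days 14 and 21 (Lpl, 1.19 ± 0.24 at day 14, adjusted p = 0.00143, edgeR). The median log2 fold changes of the 7 were -0.51, -0.44 and -0.44 at days 7, 14 and 21. Lpl is also made by macrophages and fat cells. Of 8 genes that mark sprouting endothelium, 2 were called higher and 2 lower at day 7, 3 and 1 at day 14, and 4 and 2 at day 21, led at day 14 by Pgf and, among the falls, by Esm1 (-1.11 ± 0.23, adjusted p = 0.00196, edgeR).

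Each of the 10 genes was then set against the mean log2 CPM of the 17 endothelial markers in the same library. That mean itself differed from day 0 by -0.40, -0.29 and -0.19 at days 7, 14 and 21. A gene with no change of its own would therefore stand above 0 on this relative scale. Relative to the markers, Nrp2 stood higher than at day 0 by 1.05, 1.15 and 1.11 on the log2 scale at days 7, 14 and 21, and Vegfc by 0.74, 1.01 and 0.81. Kdr differed by -0.10, -0.66 and -0.79, Angpt1 by 0.18, -0.73 and -0.52, Tek by -0.27, -0.61 and -0.30, and Tie1 by -0.30, -0.28 and -0.24. At day 7 Nrp1 stood higher by 0.60 relative to the markers, and by 0.04 and 0.18 at days 14 and 21. Angpt2 differed by -0.22, -0.40 and 0.36, Vegfa by -0.04, 0.27 and -0.20 and Flt1 by 0.00, -0.15 and 0.16. In exact permutation tests 12 of the 20 values of days 7 and 14 had p = 0.0286, the smallest that 4 against 4 libraries allow, and adjusted over all 30 values this became 0.0714. The 10 tests of day 21 could not go below 0.0571, so the design left little room for an adjusted pass. In these relative levels 6 of the 10 genes did not overlap the controls at day 7, 6 at day 14 and 6 at day 21, where 38.2%, 25.6% and 31.9% of all genes tested did not.

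**Figure D4:**
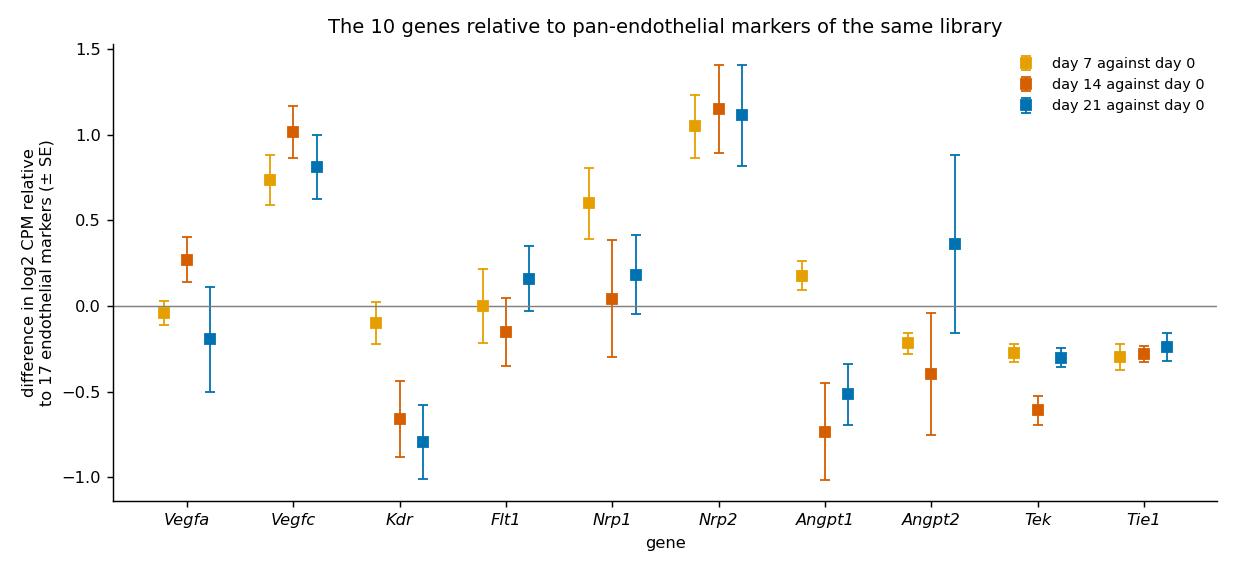
Difference from day 0 in the log2 CPM of each gene minus the mean log2 CPM of 17 pan-endothelial markers in the same library (y axis), for the 10 genes (x axis) at days 7, 14 and 21; bars are the SE of the difference of 2 means. Nrp2 and Vegfc lie above 0 on each day, Tek and Tie1 below 0 on each day, and Kdr moves from -0.10 at day 7 to -0.79 at day 21.

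Another 3 ratios were formed after the values were seen, and none of their differences from day 0 passed (exact permutation tests, lowest adjusted p = 0.0857 over the same 12 tests). Flt1 reads per Kdr read were 0.722, 1.02, 0.642 and 0.805 at day 0, 0.649 to 1.08 at day 7, 0.815 to 1.55 at day 14 and 1.17 to 1.89 at day 21, where each library exceeded each control. Tie1 reads per Tek read were 0.755 to 0.879 at day 0, 0.656 to 0.856 at day 7, 0.874 to 1.18 at day 14 and 0.764 to 0.989 at day 21. Vegfc reads per Vegfa read were 0.0145 to 0.0257 at day 0, 0.0343 to 0.0379 at day 7, 0.0269 to 0.0430 at day 14 and 0.0292 to 0.0644 at day 21, above the controls in each later library.

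The genes whose log2 CPM ran most like that of each member over the 15 libraries were found among genes with a mean of at least 5 CPM, and the Pearson r is a description of libraries that share days and tissue makeup. Kdr ran with Itpkb (r = 0.98), Cavin2 (0.96) and Adrb1 (0.96). Tek ran with Lrch1 (0.96), Clec14a (0.96), an endothelial lectin, and Clec1a (0.95), and Tie1 with Clec1b (0.95), Dmwd (0.95) and Dgkz (0.94). Nrp2 ran with Mfsd12 (0.96) and Mapre1 (0.95). Angpt1 ran with Prelp (0.95), a matrix proteoglycan, Abca8a (0.94) and Mamdc2 (0.94). Nrp1 ran with Spg11 (0.94), Prrc2b (0.93) and Heatr5b (0.92), Vegfa with Hemk1 (0.90), Stard3 (0.89) and Ccdc77 (0.87), and Vegfc with Adam15 (0.90), Ergic2 (0.90) and Ddah1 (0.88). Flt1 ran with Bicra (0.90), Cyyr1 (0.89) and Pcnx (0.89), and Angpt2, the least abundant, with Sesn1 (0.84), C1qtnf7 (0.84) and Fbxo32 (0.83). Among the 10 genes themselves the highest values were those of Kdr with Angpt1 (r = 0.86), Tek with Tie1 (0.84) and Kdr with Tek (0.80). After the mean of each day was taken out, they were 0.75, 0.77 and 0.84, and the highest pair was then Vegfa with Tek (0.86, against 0.45 before).

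Of 20 other genes of these pathways, all tested, 1 was called higher and 2 lower at day 7, 4 higher and 3 lower at day 14, and 5 higher and 0 lower at day 21. With the mitochondrial share in the fit, 0 were called lower at day 7, 4 at day 14 and 1 at day 21, and with DESeq2 2 were called lower at day 21 (Sema3c and Sh2d2a). Pgf, placental growth factor, a ligand of Flt1, had the largest rise on each day. It gave 4.46, 3.5, 2.98 and 3.79 CPM at day 0, 12.0, 12.8, 10.4 and 5.88 CPM at day 7, 16.4, 28.8, 11.3 and 11.9 CPM at day 14, and 29.1, 15.7 and 20.7 CPM at day 21. No later library fell to the control range, and the log2 fold change was 1.48 ± 0.32 (adjusted p = 0.00421, edgeR), 2.21 ± 0.32 (adjusted p = 0.000121) and 2.57 ± 0.34 (adjusted p = 6.58e-05) at days 7, 14 and 21. The remaining ligands Vegfb (13.3 to 16.3 CPM at day 0), Vegfd (40.5 to 67.2 CPM at day 0) and Angpt4 (0.381 to 1.63 CPM at day 0) were not called on any day.

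Flt4 (VEGFR3), the receptor of Vegfc, gave 63.3, 70.0, 59.8 and 85.7 CPM at day 0, 49.1 to 62.6 CPM at day 7, 71.9 to 87.1 CPM at day 14, and 159.6, 164 and 109 CPM at day 21. It was called at day 21 alone (log2 fold change 1.05 ± 0.15, adjusted p = 0.000136, edgeR), when each library exceeded each earlier one. Ptprb, the phosphatase that acts on Tek, gave 948 to 1236 CPM at day 0, 514 to 733 CPM at day 7, 532 to 726 CPM at day 14, and 882, 1299 and 819.5 CPM at day 21. It fell at day 7 (-0.70 ± 0.17, adjusted p = 0.00815, edgeR) and day 14 (-0.72 ± 0.17, adjusted p = 0.00447), and at day 21 it overlapped the controls (-0.09 ± 0.18, adjusted p = 0.761). Ptprb lost its day 7 call when the mitochondrial share entered the fit (-0.64, adjusted p = 0.0566).

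Class 3 semaphorins, the other ligands of the neuropilins, moved in both directions. Sema3d gave 10.8 to 24.7 CPM at day 0, 17.1 to 37.4 CPM at day 7, 26.2 to 41.9 CPM at day 14 and 43.0 to 62.0 CPM at day 21, with log2 fold changes of 0.96 ± 0.27 (adjusted p = 0.0132, edgeR) at day 14 and 1.54 ± 0.29 (adjusted p = 0.000977) at day 21. Sema3a rose by 0.70 ± 0.18 (adjusted p = 0.00871, edgeR) at day 14 and 1.18 ± 0.19 (adjusted p = 0.000413) at day 21, and its day 14 call was lost on fold without day 14 replicate 1 (0.57). Sema3c, from 399 to 488 CPM at day 0, was called lower at day 14 (-0.73 ± 0.22, adjusted p = 0.0207, edgeR), with libraries from 152 to 397 CPM. That call was lost without day 0 replicate 4 (adjusted p = 0.0524), without day 14 replicate 2 (adjusted p = 0.06), among libraries over 3.5% mitochondrial counts (adjusted p = 0.134), and on fold without day 14 replicate 1 (-0.57). At day 21 its libraries lay below the controls without a call (-0.59 ± 0.24, adjusted p = 0.081, edgeR), and it was called there with DESeq2 (-0.61, adjusted p = 0.0421), with no filter on low counts (-0.63, adjusted p = 0.0413, edgeR), with the mitochondrial share in the fit (-0.61, adjusted p = 0.04998, edgeR) and with days 0 and 21 fitted alone (-0.62, adjusted p = 0.0114, edgeR). Sema3g was called lower at day 7 (-0.69 ± 0.20, adjusted p = 0.0238, edgeR), a call lost without any one of 4 libraries (adjusted p = 0.0597 to 0.0704), and lost with the mitochondrial share in the fit (-0.31, adjusted p = 0.315) and among libraries under 2.5% (-0.47, adjusted p = 0.0529). At day 14 it stood just under the fold limit (-0.56 ± 0.20, adjusted p = 0.0435), and 8 alternatives put it past that limit (-0.59 to -0.77, adjusted p = 0.00576 to 0.04).

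Plxnd1, the plexin that signals with the neuropilins in endothelium, was called higher at day 14 (log2 fold change 0.61 ± 0.13, adjusted p = 0.00185, edgeR) and day 21 (0.65 ± 0.13, adjusted p = 0.00211), with 106 to 145 CPM at day 0 and 170.3 to 218 CPM at day 21. Both values lay close to the fold limit, and leaving out day 0 replicate 2 ended both calls (0.51 and 0.55). The day 14 call was also lost on fold without day 0 replicate 1 (0.57) and without day 14 replicate 3 (0.56), and the day 21 call without day 21 replicate 3 (0.52). Sh2d2a, an adaptor that binds Kdr and is also made by T cells, was called lower at day 14 (-0.90 ± 0.31, adjusted p = 0.0363, edgeR), at 2.42 to 3.09 CPM against 4.17 to 6.72 CPM at day 0. Leaving out any one of 5 libraries ended that call (-0.76 to -0.95, adjusted p = 0.0513 to 0.0937). At day 21 its libraries lay below the controls without a call (-0.83 ± 0.34, adjusted p = 0.0797, edgeR), and it was called there with DESeq2 (-0.85, adjusted p = 0.0405) and with the replicate block (-0.84, adjusted p = 0.038, edgeR). Gipc1, which binds the tail of Nrp1, passed the adjusted p on each day under the fold limit (0.56, 0.49 and 0.37). The other 7 genes of the 20, the semaphorins Sema3b, Sema3e and Sema3f and the A-class plexins Plxna1, Plxna2, Plxna3 and Plxna4, were not called on any day.

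**Figure D5:**
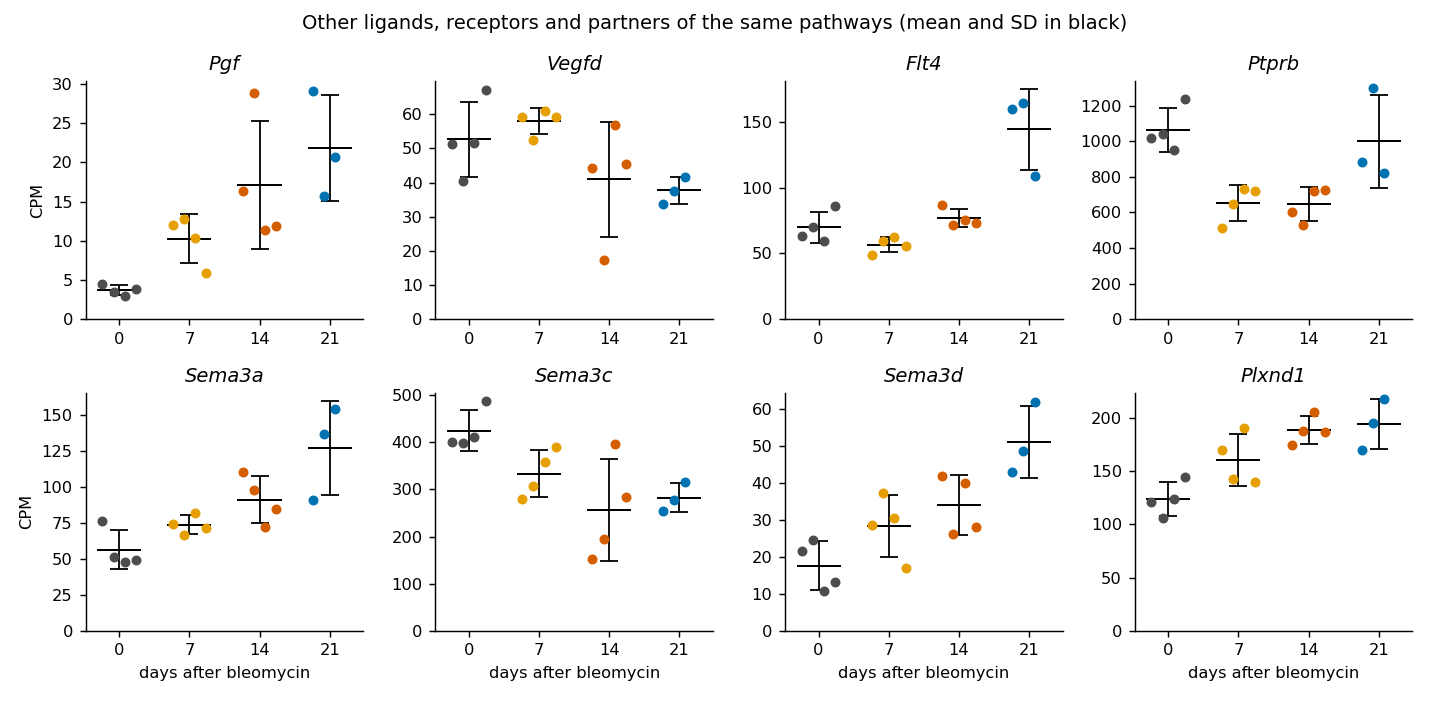
CPM (y axis from 0, a scale of its own per gene) of 8 other genes of these pathways in each library against days after bleomycin (x axis); points are libraries, lines means and bars SD. Pgf lies above its 2.98 to 4.46 CPM of day 0 in each later library, Flt4 stands out at day 21 alone, and Ptprb is low at days 7 and 14.

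Markers of the remaining tissue compartments moved as well. The lungs carried 34801 to 45917 CPM of 8 alveolar type 2 markers at day 0, and of these 0, 5 and 7 were called lower at days 7, 14 and 21, led at day 14 by the surfactant gene Sftpa1 (log2 fold change -1.56 ± 0.28, adjusted p = 0.000757, edgeR). Heart muscle markers summed to 766 CPM in day 21 replicate 1, 663 CPM in day 7 replicate 4, 289.9 CPM in day 0 replicate 3 and 197 CPM in day 0 replicate 4, and to 18.8 to 58.0 CPM in the other 11 libraries. Without day 21 replicate 1, the day 21 call of Kdr and the call of Angpt2 from day 7 to day 21 were lost. Without day 0 replicate 3, the day 7 call of Nrp2 and the day 21 call of Vegfc were lost. Without day 7 replicate 4, the call of Angpt1 from day 7 to day 14 was lost. Those calls of Angpt2, Vegfc and Angpt1 were each also lost without a library of the other 11. The heart muscle markers gave 1 call among 7 tested, Myh6 lower at day 14 (edgeR), when it was at 0 in at least 1 library, while Sln was at 0 in all day 14 libraries. Fat cell markers summed to 19.8 to 68.6 CPM at day 0, 9.42 to 137 at day 7, 1.30 to 3.5 at day 14 and 0.740 to 3.03 at day 21. Of the 5, 1 was called lower at day 7, 5 at day 14, led by Cfd, and 4 at day 21, and at day 14 Adipoq, Cfd, Car3 and Plin1 were at 0 in at least 1 library. The part of these tissues in the levels of the 10 genes was not tested.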

How the data were processed

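The authors trimmed reads with TrimGalore, aligned 150-base read pairs to GRCm38/mm10 with HISAT2 2.1.0, left out multi-mapped reads and deposited HTSeq 0.6.0 raw counts per gene for 15 whole lung libraries. The annotation release and the strand setting are not given in the sources used here. Gene IDs were matched to GENCODE M21 (33267 of 33340). After filterByExpr, counts were tested with edgeR 4.0.16 (TMM, glmQLFit and glmQLFTest in R 4.3.3) in 1 fit over all 15 libraries, with Benjamini-Hochberg adjustment over 17457 genes. The biological coefficient of variation was 22.8%. The SE of a log2 fold change is its size over the root of the F statistic. The fit was tested on simulated counts with known changes.

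CPM and RPKM values were computed from the deposited counts. Count ratios used a pseudocount of 0.5 reads, and exact permutation tests used scipy 1.17.1. Alternatives were DESeq2 1.42.0 (the authors used 1.40.2), limma 3.58.1 voom, other size factors, filters, samples, covariates and glmTreat. The members and gene lists were chosen with earlier results of these data known. The text names the 10 members, 20 other genes of the pathways, the called gene with the largest rise and fall at day 14 of each other list (pan-endothelial, aerocyte, general capillary, sprouting, hypoxia, alveolar type 1 and 2, pericyte, lymphatic, platelet, macrophage, heart muscle and fat cell), and the 3 genes most like each member, of which 1 is not reported here. Hopx, Siglecf and Pf4 were named after their values were seen. The study calls the libraries biological replicates, and no 2 libraries of a day were alike within sampling noise. Replicate numbers recur across days, but correlations of the deviations of same-numbered libraries ran from -0.24 to 0.40, so the numbers were not taken to pair the libraries.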

Additional observations from a re-analysis of the deposited data

Results flagged for a closer look

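In 6 of 93 groups of 4 libraries, over the 10 genes, the 20 other genes of their pathways and the Angpt2 to Angpt1 ratio, 1 library stood apart from the rest by Dixon's test, where chance gives about 5% of groups. Day 14 replicate 2 was such a library for both neuropilins, low in Nrp1 (119.9 CPM, the others 203 to 217) and in Nrp2 (135 CPM, the others 166 to 169). It had the highest macrophage marker sum of its day (4367 CPM), with day 14 replicate 1 next (3963 CPM). In the other groups a single library stood apart in Vegfb at day 7 (11.2 CPM, the others 16.1 to 16.9), Angpt4 at day 14 (2.42 CPM, the others 0.686 to 0.965), Sema3a at day 0 (76.6 CPM, the others 47.8 to 51.3) and Sema3c at day 0 (488 CPM, the others 399 to 411).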

How the results depend on the processing

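No log2 fold change of the 10 genes that was called changed sign under any alternative, and leaving out a library, another tool, other size factors or filters kept the number of members called within 1.5 times for each comparison with day 0. The number called at day 7 (3) became 0 with the mitochondrial share in the fit, 0 with glmTreat, which tests against the 1.5-fold limit itself, and 1 among libraries with a mitochondrial share under 2.5%. With glmTreat, 1 remained at day 14 (Angpt1) and 1 at day 21 (Nrp2), from 5 and 4. The single call from day 7 to day 14 became 0 with the mitochondrial share and with glmTreat and ranged from 0 to 1 when each library was left out. The single call from day 7 to day 21 became 0 with voom, with the mitochondrial share, with those days fitted alone and with glmTreat, and also ranged from 0 to 1. Leaving out a day 0 or later library gave 2 to 3 calls at day 7, 5 to 7 at day 14 and 3 to 5 at day 21, and 6 to 8 genes passing for any difference among the days (8 of 10 with all libraries, 7 with the mitochondrial share in the fit).

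With the replicate number as a block, Angpt2 was called lower at day 7 (-0.62, adjusted p = 0.035, edgeR) and day 14 (-0.69, adjusted p = 0.016), and the block changed no other call of a member. Of the settings tried for the members' fold changes, 1073 kept the call or its absence, 22 gained a call and 35 lost one. The 20 other genes of the pathways were put through the same settings, a step chosen after seeing the data, with 25 calls gained, 35 lost and none reversed. Over all genes, 2818 calls at day 7 became 1269 with the mitochondrial share, 4365 with no fold limit and 703 with glmTreat, and with glmTreat 4040 at day 14 became 1755 and 3924 at day 21 became 1754. From day 7 to day 14, 1048 became 1638 with DESeq2, 218 with the mitochondrial share, 14 with glmTreat and 340 to 1300 without 1 library. From day 7 to day 21, 1665 became 942 with the mitochondrial share, 176 with glmTreat and 966 to 1822 without 1 library. Between days 14 and 21, 0 became 106 with DESeq2, 37 with no filter and up to 127 without 1 library. The causes were not tested. Angpt2 (127 to 480 reads per library) and Vegfc (286 to 848) rested on the fewest reads.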
